A study of Mus musculus with 9 samples.

Results

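SOX proteins are transcription factors that bind DNA through a high-mobility-group (HMG) domain related to that of the sex-determining factor SRY. The 9 SOX genes described here are those listed for stem and neural cells: Sox1, Sox2, Sox3, Sox4, Sox11, Sox12, Sox13, Sox15 and Sox21. They were taken by symbol from the 23366 named rows of a gene count table, and all 9 had a row. RNA from mouse embryonic stem (ES) cells was sequenced in 6 libraries. One group of 3 was Sirt6-KO, cells labelled as a knockout of Sirt6, which encodes a histone deacetylase. The other group of 3 was WT, wild-type cells. Both groups were 129 SvJae F1 cells, at passage 21, and grew in medium with 10% serum and LIF (leukaemia inhibitory factor). The series also lists 3 wild-type samples deprived of glucose, which are not analysed here. The labels do not say how the knockout was made, how many clones it comes from or whether replicates were separate cultures, so the p-values reflect how much these samples varied, which may be technical variation only.

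SOX2 works with the POU factor OCT4 (gene Pou5f1) at paired DNA sites and is needed for ES cells to stay pluripotent. SOX1, SOX2 and SOX3 form subgroup B1, whose members keep neural progenitors undifferentiated, and SOX21, of subgroup B2, counteracts them. SOX4, SOX11 and SOX12 form subgroup C and act in neurons and other cells that start to differentiate. SOX13 belongs to subgroup D, and SOX15, of subgroup G, is close to SOX2 in DNA binding and is found in mouse ES cells.

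Total counts ran from 20107037 to 29267115 in the Sirt6-KO libraries and from 25044061 to 27785052 in the WT libraries. Sirt6 itself had 12, 6 and 6 counts in Sirt6-KO replicates 1 to 3, against 348, 341 and 342 in WT replicates 1 to 3. Levels are given as CPM, counts per 1000000 of a library size scaled by the trimmed mean of M values (TMM). In edgeR's quasi-likelihood test over 14988 genes, 55.7% were called at an adjusted p under 0.05, with 27.9% higher and 27.8% lower in Sirt6-KO, and the groups did not overlap in 63.2%. With total counts in place of TMM, 62.3% of the calls were higher, against 50.1% with TMM, since that scaling moves the median log2 fold change of all genes up by 0.12. Median log2 fold changes by chromosome were -0.30 on chromosome 1, -0.24 on chromosome 8, 0.20 on the X and 2.97 over 6 tested genes of the Y chromosome.

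Of the 9 SOX genes, all tested, 4 rose in Sirt6-KO cells (Sox2, Sox4, Sox11 and Sox15), 4 fell (Sox1, Sox3, Sox13 and Sox21) and Sox12 did not pass the test. Calls were thus made for 8 of 9, against 55.7% of all genes, and the groups did not overlap in those 8, against 63.2% of all genes. The median log2 fold change of the 9 was 0.28, which is the value of Sox12, against 0.01 over all genes tested. Sox21 fell 22.0-fold and had the 15th lowest log2 fold change of all genes tested, while the 4 rises ranged from 1.32-fold for Sox2 to 3.01-fold for Sox4. In RNA from whole cultures, fewer cells of a type and less RNA per cell cannot be told apart.

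**Figure D1:**
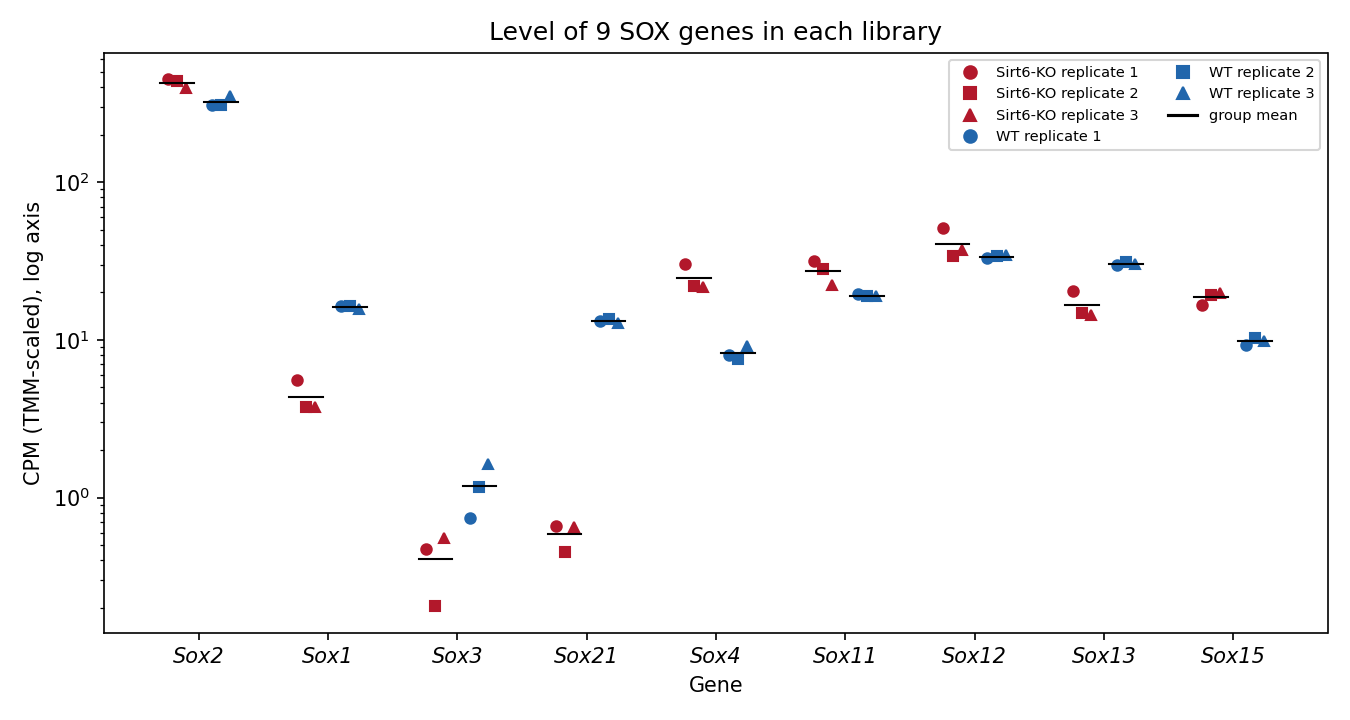
Level of each SOX gene in TMM-scaled CPM on a log axis; each point is 1 library, with Sirt6-KO in red and WT in blue, and black lines are group means (3 libraries each). Sox21 lay between 0.450 and 0.661 CPM in Sirt6-KO and between 12.7 and 13.5 CPM in WT, while the groups of Sox12 overlapped.

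Among the genes of subgroup B1, Sox2 rose and both others fell. Sox2 had 448, 441 and 394 CPM in Sirt6-KO replicates 1 to 3, against 310.4, 310.4 and 350.3 CPM in WT replicates 1 to 3. Every Sirt6-KO library was above every WT library, though Sirt6-KO replicate 3 and WT replicate 3 were close. The log2 fold change was 0.40 ± 0.10 (SE; adjusted p = 0.00700, edgeR), and the call ended without WT replicate 2 (adjusted p = 0.0541, range over the alternatives 0.000386 to 0.0541). The noncoding gene Sox2ot, within which Sox2 lies on the same strand, averaged 2.06 ± 0.290 CPM in Sirt6-KO and 3.06 ± 0.107 CPM in WT (SD, n = 3 each). It fell by 0.55 on the log2 scale (adjusted p = 0.0180), a call lost with total counts (0.0788), without WT replicate 2 (0.0609) and without Sirt6-KO replicate 2 (0.0521). The call was also lost at a threshold of 0.01. No exon of the 2 genes overlaps in the GENCODE annotation.

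Sox1, an early marker of the neural plate, had 5.57, 3.77 and 3.75 CPM in Sirt6-KO, against 16.5, 16.4 and 15.6 CPM in WT. The 3 WT libraries lay close together, and Sirt6-KO replicate 1 was the highest of its group. Sox1 fell by 1.87 ± 0.16 on the log2 scale, 3.65-fold (adjusted p = 3.63e-06, edgeR). It lies on chromosome 8, and the fall left -1.63 after subtraction of that chromosome's median. Of the 4832 exon bases of Sox1, 86 are shared in the annotation with Gm25239 on the same strand, which has no row of its own. Sox3, an X-linked gene of neural progenitors and the pituitary, was near the limit of what could be counted. Its counts were 15, 5 and 11 in Sirt6-KO (0.472, 0.205 and 0.551 CPM), against 20, 28 and 42 in WT (0.745, 1.17 and 1.62 CPM). The groups did not overlap, yet WT itself spread 2.18-fold from its lowest to its highest library. Sox3 had a log2 fold change of -1.52 ± 0.40 (adjusted p = 0.00715, edgeR), or -1.72 after subtraction of the X chromosome's median. It reached the filter's minimum of 0.383 CPM in 2 Sirt6-KO and 3 WT libraries, and every other one of the 9 genes reached it in all 6 libraries.

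The promoter window of Sox1 holds the octamer, the motif read by POU factors such as OCT4, and is shown for that reason. RefSeq windows of 300 bases (GRCm38.p6, 250 before and 50 after a gene's start) were matched by symbol for 8 of the 9 genes. The octamer ATGCAAAT, searched on both strands, is in 1.74% of 32851 such windows, and among the SOX genes in those of Sox1 and Sox12. The Sox1 stretch (chr8:12395526-12395555, plus strand) begins its octamer at base 19 counted from the start, and the Sox12 stretch (chr2:152398223-152398252, minus strand) at base -195. Both are written 5′ to 3′ with the octamer in capitals.
Sox1: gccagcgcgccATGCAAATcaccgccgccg
Sox12: gcgattgggagATGCAAATgctgagttctc
The SOX core AACAAT was in none of the 8 windows (10.7% of all windows), and ACAAAG was in those of Sox2 and Sox15 (18.7% of all windows). These are matches of letters, with no data here on binding.

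Sox21, the repressor of subgroup B2, had 21, 11 and 13 counts in Sirt6-KO, against 351, 323 and 329 in WT. In CPM these were 0.661, 0.450 and 0.651 in Sirt6-KO, against 13.1, 13.5 and 12.7 in WT. The WT libraries were close, those of Sirt6-KO spread 1.47-fold from lowest to highest at low counts, and the groups were far apart. The log2 fold change was -4.46 ± 0.17 (adjusted p = 5.35e-08, edgeR), with a range of -4.58 to -4.31 over the alternatives. It lies on chromosome 14, and the fall left -4.36 after subtraction of that chromosome's median. In the annotation 713 of its 3799 exon bases are shared with Gm4675 on the opposite strand, which has no row of its own in the table; the sources used here do not say whether reads were counted by strand. Its promoter is shown as that of the gene with the largest change among the 9. The 250 bases before the start (chr14:118237031-118237280, minus strand, RefSeq, GRCm38.p6) are written 5′ to 3′ with each CpG, the dinucleotide that carries DNA methylation, in capitals.
Sox21: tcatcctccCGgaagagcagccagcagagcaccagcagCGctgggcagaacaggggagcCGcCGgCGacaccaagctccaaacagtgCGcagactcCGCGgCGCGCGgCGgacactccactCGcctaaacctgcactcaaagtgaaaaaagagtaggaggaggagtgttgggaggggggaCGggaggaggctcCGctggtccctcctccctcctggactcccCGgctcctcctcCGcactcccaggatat
This stretch holds 17 CpG, against a median of 6 over all windows, and 78.3% of windows hold as many or fewer.

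In subgroup C, Sox4 and Sox11 rose, and Sox12 did not pass the test. Sox4, which promotes survival and differentiation of progenitors, had 30.5, 21.9 and 21.8 CPM in Sirt6-KO, against 7.98, 7.57 and 9.12 CPM in WT. The lowest Sirt6-KO library was well above the highest WT library, and the log2 fold change was 1.59 ± 0.15 (adjusted p = 9.45e-06, edgeR). In the annotation 2616 of its 4795 exon bases are shared with Gm26735 on the opposite strand, which has no row in the table. Sox11, a factor of newborn neurons, had 31.7, 28.2 and 22.4 CPM in Sirt6-KO, against 19.5, 18.9 and 18.9 CPM in WT. The WT libraries were nearly equal, while Sirt6-KO replicate 3 came closest to them. Sox11 rose by 0.53 ± 0.13 on the log2 scale (adjusted p = 0.00485, edgeR).

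Sox12, the gene of its subgroup with the highest level per transcript length in both groups, had 50.9, 34.1 and 37.3 CPM in Sirt6-KO, against 33.0, 33.8 and 34.4 CPM in WT. Sirt6-KO replicate 1 stood above all others, and replicate 2 fell within the WT range. The log2 fold change was 0.28 ± 0.14 with a 95% interval of -0.03 to 0.59 (adjusted p = 0.116, edgeR). It was 0.09 without Sirt6-KO replicate 1 (adjusted p = 0.355). Sox12 passed as higher with total counts (0.41, adjusted p = 0.0427, or 0.27 relative to the median of all genes), with trends of each library on length and GC content removed (0.32, adjusted p = 0.00236) and with the replicate number as a block (0.26, adjusted p = 0.0349).

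Sox13, of subgroup D, which encodes a factor known from gamma delta T cells and the neural tube, fell. It had 20.5, 14.7 and 14.4 CPM in Sirt6-KO, against 29.7, 31.3 and 30.1 CPM in WT, with no overlap. The log2 fold change was -0.87 ± 0.14 (adjusted p = 0.000301, edgeR), or -0.57 after subtraction of the median of chromosome 1, on which it lies. That median's part in the result was not tested.

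Sox15, the subgroup G relative of Sox2, rose. It had 16.6, 19.3 and 19.8 CPM in Sirt6-KO, against 9.24, 10.2 and 9.85 CPM in WT. All Sirt6-KO libraries were above all WT libraries, and replicate 1 was the lowest of the Sirt6-KO libraries, unlike for every other listed SOX gene. The log2 fold change was 0.92 ± 0.12 (adjusted p = 5.74e-05, edgeR). Sox15 shares 31 of its 861 exon bases with Mpdu1 on the opposite strand, and Mpdu1 moved the other way, at 46.7 ± 5.05 CPM in Sirt6-KO and 72.8 ± 4.78 CPM in WT (SD, n = 3 each; log2 fold change -0.64, adjusted p = 0.000447). The Sox15 promoter is set beside that of Sox21 as the poorest in CpG among the 8 windows. The 250 bases before its start (chr11:69654787-69655036, plus strand, RefSeq, GRCm38.p6) are written as above, 5′ to 3′ with each CpG in capitals.
Sox15: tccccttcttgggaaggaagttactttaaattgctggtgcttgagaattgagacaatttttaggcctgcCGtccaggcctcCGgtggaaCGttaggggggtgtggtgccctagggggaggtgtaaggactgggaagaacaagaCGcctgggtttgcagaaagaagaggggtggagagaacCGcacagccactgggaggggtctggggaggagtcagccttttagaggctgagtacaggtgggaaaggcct
It holds 5 CpG, and 49.6% of all windows hold as many or fewer. The other windows hold 11 (Sox4), 17 (Sox11 and Sox21), 27 (Sox2), 29 (Sox1), 31 (Sox13) and 35 (Sox12).

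**Figure D2:**
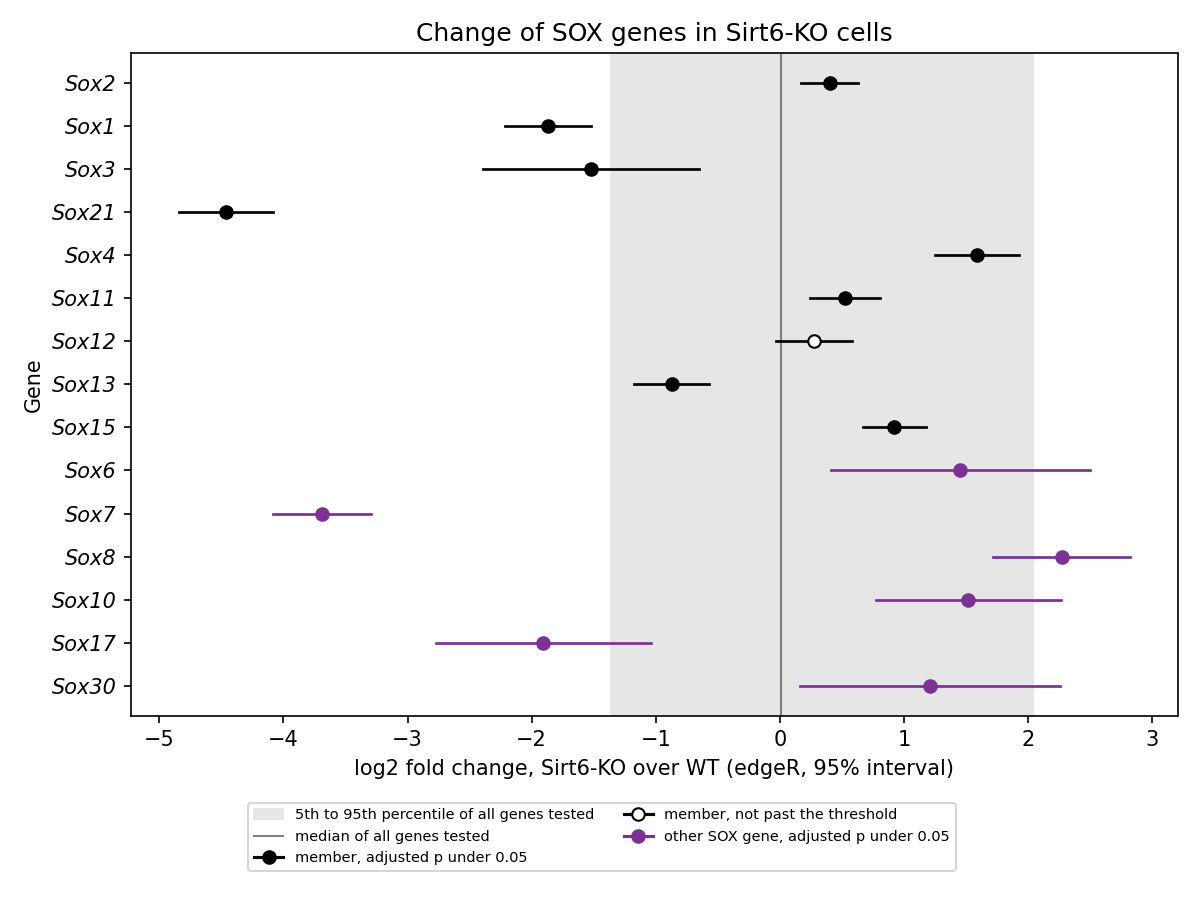
Log2 fold change of Sirt6-KO over WT with its 95% interval (edgeR) for the 9 SOX genes (black) and the 6 other SOX genes that were tested (purple); filled points passed an adjusted p of 0.05, and the grey band holds the 5th to 95th percentile of all genes tested (-1.36 to 2.04). Of the 9, Sox21, Sox1 and Sox3 lie below the band, and the interval of Sox12 spans 0.

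Divided by transcript length, Sox2 was far above the other 8 genes in both groups. Its level per length was 208 ± 14.2 CPM per kb in Sirt6-KO and 157 ± 11.2 CPM per kb in WT (SD, n = 3 each), and Sox15 was next, at 21.6 ± 2.04 and 11.3 ± 0.567 CPM per kb in the same groups. In Sirt6-KO the order went on with Sox12 (9.16), Sox4 (5.15), Sox13 (4.47), Sox11 (3.30), Sox1 (0.903), Sox3 (0.198) and Sox21 (0.155 CPM per kb). Sox4 and Sox13 overlapped there, as did Sox3 and Sox21. In WT the order went on with Sox13 (8.23), Sox12 (7.58), Sox21 (3.45), Sox1 (3.35), Sox11 (2.30), Sox4 (1.71) and Sox3 (0.571 CPM per kb), and only Sox21 and Sox1 overlapped among neighbours. Sox21 was thus the ninth in Sirt6-KO and the fifth in WT, and Sox4 the fourth in Sirt6-KO and the eighth in WT.

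Shares within a library do not depend on how libraries are scaled to each other. Of the summed level per length of the 9 genes, Sox2 made up 82.2% ± 0.946 in Sirt6-KO and 80.3% ± 1.06 in WT (SD, n = 3 each), and the groups overlapped. Within subgroup B1, the Sox2 share was 99.4%, 99.6% and 99.5% in Sirt6-KO replicates 1 to 3, against 97.6%, 97.4% and 97.7% in WT replicates 1 to 3. Within subgroup C, the Sox4 share was 29.4%, 29.2% and 29.1% in Sirt6-KO, against 14.6%, 13.8% and 16.0% in WT. The Sirt6-KO libraries gave almost the same Sox4 share although their levels of Sox4 differed by up to 1.40-fold. For 1000 units of Sox2 level per length there were 0.748 ± 0.175 units of Sox21 in Sirt6-KO and 22.0 ± 2.09 in WT (SD, n = 3 each). The corresponding value of Sox15 was 104 ± 15.9 in Sirt6-KO and 72.3 ± 5.78 in WT, again with no overlap.

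**Figure D3:**
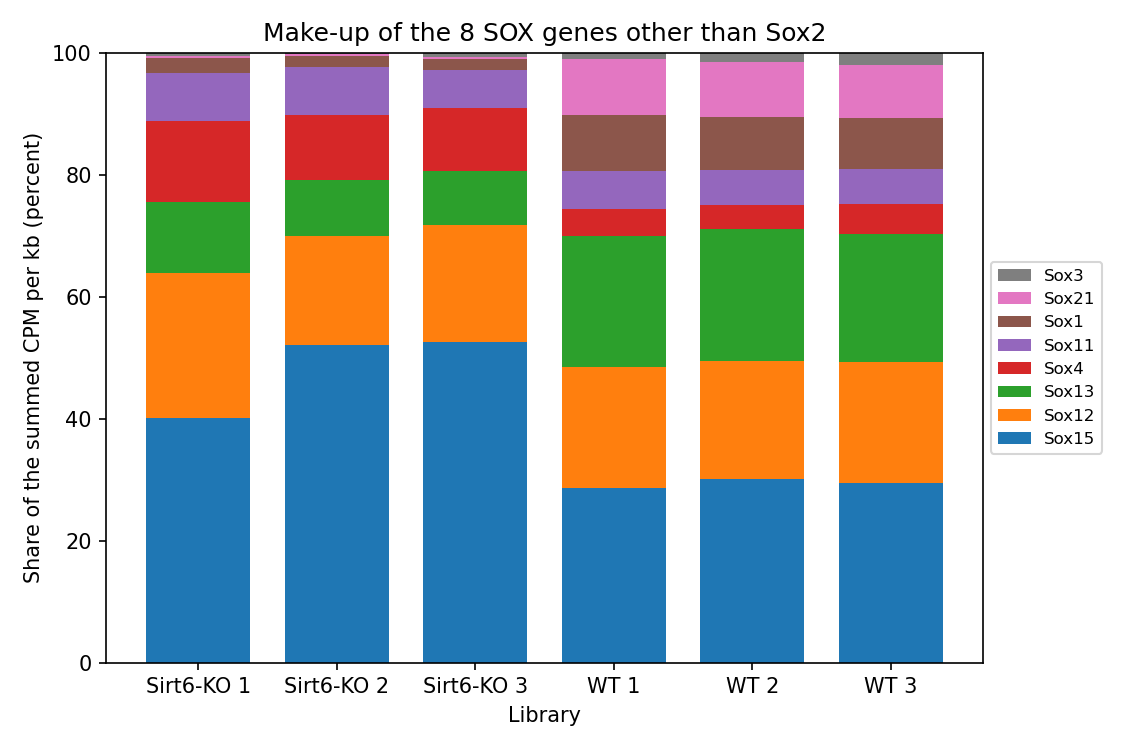
Share of each of the 8 SOX genes other than Sox2 in their summed CPM per kb, in percent, as 1 stacked bar per library. Sox15 made up 40.1% to 52.6% in the Sirt6-KO libraries and 28.7% to 30.2% in the WT libraries, while the Sox21 segment was at most 0.392% in Sirt6-KO and at least 8.61% in WT.

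The Sirt6-KO libraries differed among themselves more than the WT libraries did. The coefficient of variation was larger in Sirt6-KO than in WT for 8 of the 9 SOX genes, the exception being Sox2, and for 75.1% of all genes tested. Sirt6-KO replicate 1 was the highest of its group for 7 of the 9, against 50.0% of all genes tested. Across genes, the deviation of that library from its group mean rose with transcript length (Spearman's rho 0.46) and GC content (0.31). For Sirt6-KO replicate 3 the rho with length was -0.54, and for replicate 2 the rho with GC content was -0.49, where genes are not independent replicates. The WT libraries also had length trends, with a rho of 0.33 for WT replicate 1 and -0.30 for WT replicate 3. Transcripts of the 9 genes ran from 861 bases (Sox15) to 8311 bases (Sox11), against a median of 3261 over genes tested. Of the 9 genes, 7 have a single exon, and their transcripts hold 46.5% (Sox11) to 66.4% (Sox3) GC, against a median of 50.0% over genes tested. With the trends on length and GC content removed the calls of the 8 genes held, and Sox2 was at 0.27 (adjusted p = 0.0146).

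**Figure D4:**
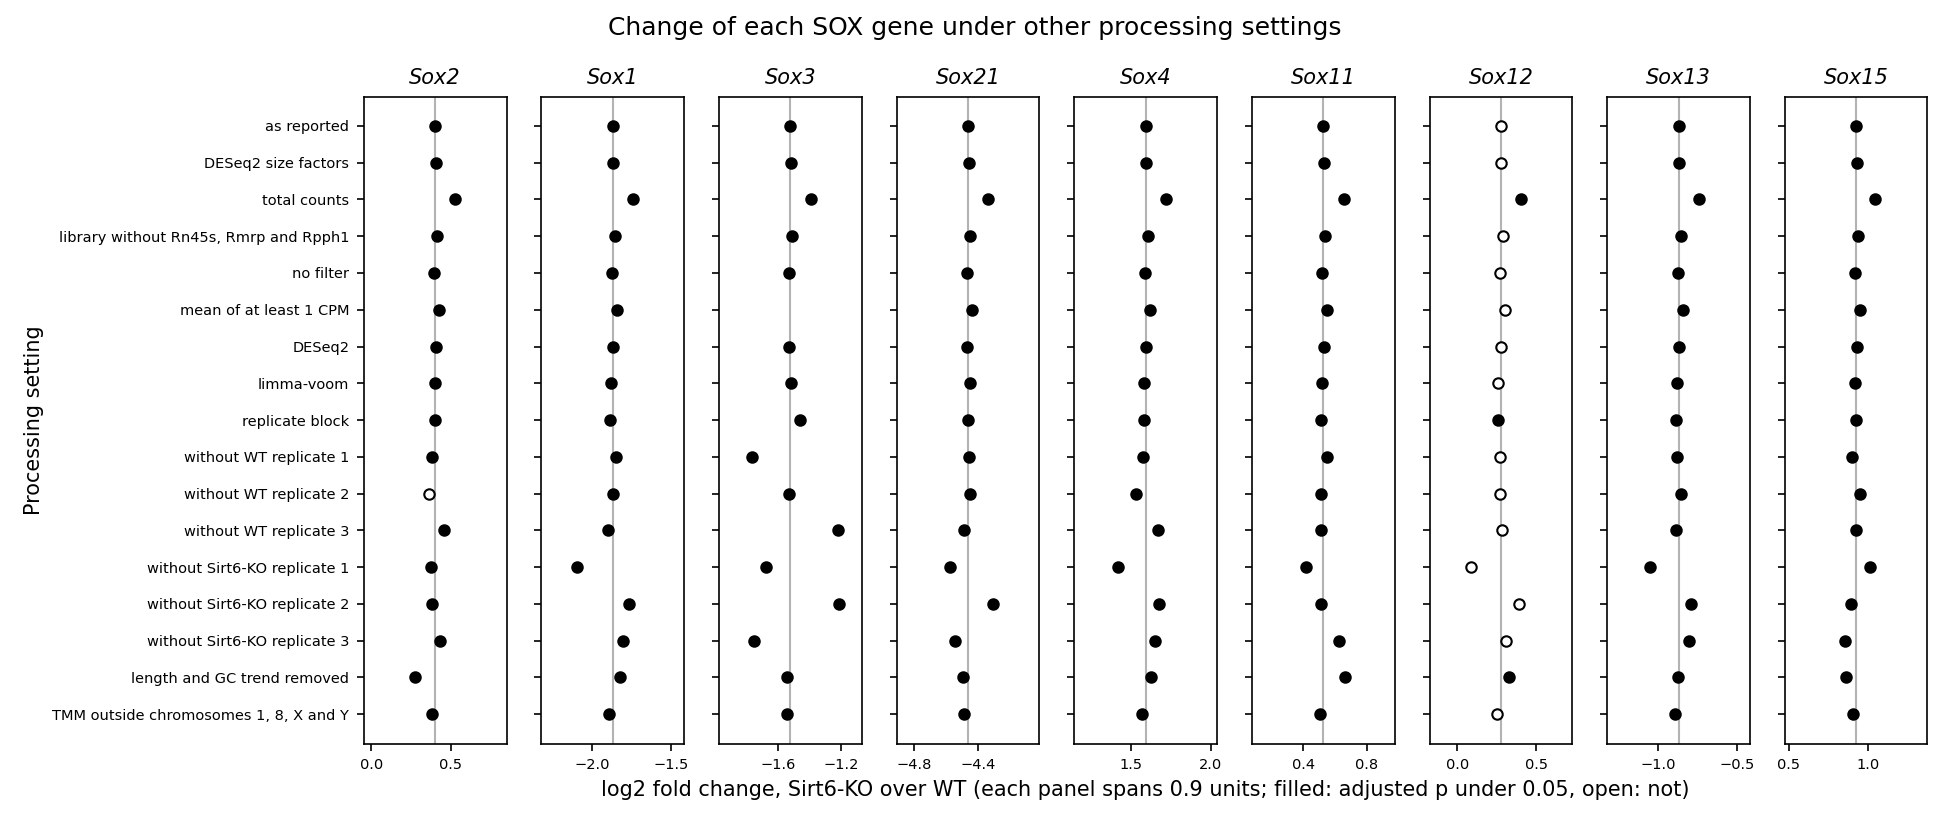
Log2 fold change of Sirt6-KO over WT for each SOX gene (1 panel each, all panels spanning the same width) under each processing setting, with filled points at an adjusted p under 0.05 and open points above it; the grey line is the value as reported. Sox12 lay between 0.09 and 0.41, and the point of Sox2 without WT replicate 2 is open; Sox3 has no point where genes needed a mean of at least 1 CPM.

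In the authors' deposited table of 19025 genes, the 9 SOX genes were on the same side of an adjusted p of 0.05 as here. Its log2 fold changes differed from those above by at most 0.21, the largest differences being for Sox3 (-1.31 in the authors' deposited table) and Sox21 (-4.26 in the authors' deposited table).

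Of the 11 other SOX genes, 6 could be tested, of which 4 rose and 2 fell, while 27.9% of all genes tested were higher and 27.8% lower. Apart from Sox7 in WT, all were at low levels. Sox6, Sox10 and Sox30 reached the filter's minimum in 3 Sirt6-KO libraries and 1 WT library, Sox8 in 3 and 2, and Sox17 in 1 Sirt6-KO and 3 WT libraries, so that most were tested through the group where they are high. Sox7, a factor of the endoderm and blood vessels, had 0.598, 0.532 and 0.751 CPM in Sirt6-KO, against 7.68, 8.12 and 8.27 CPM in WT (log2 fold change -3.69 ± 0.18, adjusted p = 1.32e-07, edgeR). Sox17, an endoderm regulator, fell by 1.90 ± 0.39 on the log2 scale (adjusted p = 0.00179), with 24 counts over the Sirt6-KO libraries and 90 over the WT libraries. Sox8 and Sox10, of the neural crest and glia, rose by 2.27 ± 0.25 and 1.52 ± 0.34 (adjusted p = 2.38e-05 and 0.00287), and Sox8 reached 2.46 ± 0.333 CPM in Sirt6-KO, against 0.513 ± 0.121 CPM in WT (SD, n = 3 each). The rises of Sox6 (1.46 ± 0.47, adjusted p = 0.0220) and Sox30 (1.21 ± 0.48, adjusted p = 0.0493) did not hold. That of Sox6 was lost without WT replicates 1 or 2 or Sirt6-KO replicate 2 (adjusted p = 0.0830, 0.0781 and 0.118), and at a threshold of 0.01. That of Sox30 was lost in 10 alternatives, among them DESeq2 (adjusted p = 0.0710) and leaving out WT replicates 1 or 2 or any Sirt6-KO replicate (0.143, 0.169, 0.109, 0.0635 and 0.0910). The other 5, Sry, Sox5, Sox9, Sox14 and Sox18, were too low to test, with at most 10 counts over the Sirt6-KO libraries and 39 over the WT libraries, both for Sox18.

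Among the POU factors, the partners of SOX proteins on DNA, 1 of 8 tested genes rose and 3 fell (10 listed), with a median log2 fold change of -0.22. Of all genes tested, 27.9% were higher and 27.8% lower, so the share of POU genes called was near that of all genes. With total counts 2 of the 8 were higher. Pou3f1, of the primed epiblast and neural progenitors, rose by 0.85 ± 0.17, and Pou2f1 and Pou4f1 fell by 1.01 ± 0.13 and 1.20 ± 0.14 on the log2 scale. Pou5f1 fell to 1199 ± 152 CPM in Sirt6-KO, against 1651 ± 133 CPM in WT (SD, n = 3 each). Its adjusted p was 0.0108 (edgeR), a call lost without WT replicate 3 (0.0535), without Sirt6-KO replicate 2 (0.0646) and at a threshold of 0.01. Of 8 genes known as targets of SOX2 with OCT4 in ES cells, Pou5f1 among them, 1 rose and 5 fell, with a median of -0.37 (27.9% higher and 27.8% lower over all genes). Zscan10 and Utf1 fell by 1.07 ± 0.10 and 0.64 ± 0.09 on the log2 scale, whereas Fbxo15 rose by 0.60 ± 0.11. The count lower was 3 with total counts and without WT replicate 1, WT replicate 2 or Sirt6-KO replicate 2, and 2 without WT replicate 3.

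Of 22 listed neural progenitor genes 11 were tested, of which 4 rose and 5 fell (median -0.49). Of all genes tested, 27.9% were higher and 27.8% lower, or 55.7% in either direction. Otx2, of the forebrain and the primed epiblast, rose to 32.9 ± 1.17 CPM in Sirt6-KO, against 3.36 ± 0.515 CPM in WT, and Prom1, a surface marker of progenitors, to 11.7 ± 0.910 CPM in Sirt6-KO, against 1.12 ± 0.354 CPM in WT (SD, n = 3 each; adjusted p = 5.73e-08 and 3.04e-07, edgeR). Gbx2, of the hindbrain and naive ES cells, and the Notch target Hes1 fell by 1.63 ± 0.10 and 1.80 ± 0.11 on the log2 scale. Of 14 neuronal genes 12 were tested, of which 7 rose and 2 fell (median 0.53), beside the same shares of all genes. The tubulin binder gene Stmn2 rose to 320 ± 62.6 CPM in Sirt6-KO, against 26.3 ± 2.27 CPM in WT, and the neuronal tubulin gene Tubb3 to 126 ± 8.82 CPM in Sirt6-KO, against 59.3 ± 3.75 CPM in WT. The synaptic vesicle gene Syp rose by 0.74 ± 0.18, and Mapt, which encodes tau, fell by 2.59 ± 0.12 on the log2 scale.

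The summed level of ES cell markers was high in both groups, and markers of other cell types moved with the groups. The counts of markers called stand beside 27.9% higher and 27.8% lower over all genes tested. The summed level of 8 ES cell markers was 5885 to 7595 CPM in Sirt6-KO and 5537 to 6119 CPM in WT, with 2 of 8 higher (Tdgf1 and Dppa5a) and 3 lower (Pou5f1 and Utf1 among them). Without WT replicate 3 or Sirt6-KO replicate 2, 1 was lower. The sum was uneven over genes: Dppa5a alone ran from 1402 to 2683 CPM over the Sirt6-KO libraries, while Utf1 averaged 67.5 CPM there. Of 8 primitive endoderm markers, Sox7 and Sox17 included, 7 were tested and all 7 fell. Their summed level was 31.7 to 50.9 CPM in Sirt6-KO and 227 to 256 CPM in WT, most of it from the laminin gene Lama1, with Gata6 and Pdgfra at log2 fold changes of -4.37 and -2.17. Gata6 reached the filter's minimum in 0 Sirt6-KO and 3 WT libraries (13 counts in all Sirt6-KO and 278 in all WT libraries), and Sox17 in 1 and 3, so both were tested through WT, where they are high. Of 12 embryonic fibroblast markers 7 were tested, 6 rose and 0 fell, with Tagln, Acta2, Thy1 and Col1a1 up by 3.28, 4.65, 1.92 and 1.91. Acta2 reached the minimum in 3 Sirt6-KO and 0 WT libraries (180 counts in Sirt6-KO and 7 in WT), and Col1a1 and Col1a2 also reached it in more Sirt6-KO than WT libraries. The list's summed level was 38.0 to 43.3 CPM in Sirt6-KO and 8.75 to 9.50 CPM in WT. Tagln alone averaged 21.7 CPM in Sirt6-KO and 2.21 CPM in WT. Col3a1, Twist2, Postn, Lum and Dcn were too low to test, and the defining marker Lum had 0 counts in all 6 libraries. The tested marker that did not rise had a log2 fold change of -0.18. Of 7 trophectoderm markers 4 were tested, 3 rose (the keratin genes Krt7, Krt8 and Krt18) and 0 fell. Eomes, also tested, had a log2 fold change of -0.32 and did not pass the test. Cdx2, Elf5 and Gata3 were too low to test, so the rise is one of keratin genes only. The list's summed level was 65.6 to 77.3 CPM in Sirt6-KO and 29.3 to 31.0 CPM in WT. Krt7 reached the minimum in 3 Sirt6-KO and 0 WT libraries (158 counts in Sirt6-KO and 11 in WT), so it was tested through Sirt6-KO, where it is high. The part of these cell types in the SOX results was not tested.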

How the data were processed

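RNA of mouse ES cells was measured in 6 libraries. The deposited table holds whole-number counts per gene symbol; the authors applied no normalization to them. TopHat2 2.0.10, HTSeq 0.6.1 and DESeq2 appear in the submitters' processing notes, as does mm9, without roles. The authors' deposited comparison gives, per the file headers, a signal (base mean), log2 fold changes and their SEs, a score (Wald statistic) and p-values.

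Counts were tested with edgeR 4.0.16 in R 4.3.3 (two-sided quasi-likelihood test, filterByExpr, TMM, Benjamini-Hochberg adjustment over 14988 genes, threshold 0.05). SEs are absolute log2 fold changes over the square root of F. Alternatives used DESeq2 1.42.0 and limma-voom (limma 3.58.1), other scalings and filters, single replicates left out, and removal of trends on transcript length and GC content. The method was tested on counts simulated with the same dispersion for every gene and without library trends on length or GC content. Members, lists and tests were chosen with earlier results of these data known. Genes named were the 9 members, Sirt6, tested SOX genes and up to 4 called genes per list with the smallest adjusted p. Sox2ot, Mpdu1, Col1a2, Col3a1, Twist2, Postn, Lum, Dcn, Eomes, Cdx2, Elf5 and Gata3 were named after their values were seen. Lengths, GC content and exons came from GENCODE M21 (GRCm38, not the authors' build; length and GC for 99.0% of tested genes). Libraries differed by more than sampling noise in every pair (lowest chi-square per degree of freedom 3.92).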

Additional observations from a re-analysis of the deposited data

How the results depend on the processing

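The 8 calls among the 9 SOX genes and their directions held under the other scalings, filters and tests, with the replicate block, with trends on length and GC content removed and at an adjusted p under 0.01. There were 2 exceptions: Sox2 without WT replicate 2, and Sox3, which was not tested where genes needed a mean of at least 1 CPM. Sox12 passed in 3 alternatives, as given above. In the other SOX genes the count higher was 2 without WT replicate 1, WT replicate 2 or Sirt6-KO replicate 2. It was also 2 at an adjusted p under 0.01, and 1 where genes needed a mean of at least 1 CPM. Leaving out single replicates gave 3580 to 4961 genes higher and 3352 to 4915 lower, and 3 to 4 SOX genes higher and 4 lower. The deviations of same-numbered replicates from their group means correlated over genes at 0.21, -0.03 and 0.20, and WT replicate 2 did not correlate best with its own number, so the numbers were not taken to pair all samples; with the replicate block, 9352 genes were called in place of 8345, and Sox12 (log2 fold change 0.26) was the only one of the 9 SOX genes whose call changed. Depth limits Sox3, Sox21 in Sirt6-KO and the other SOX genes under 1 CPM, whose counts are low.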
